A study of Mus musculus with 36 samples.

Results

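CCl4 for 12 months was compared with olive oil for the same time in whole livers of mice, over 12 libraries (6 CCl4 and 6 oil, by their titles) of the 36 in the series. All mice were male C57BL/6N from Janvier Labs, aged 8 to 10 weeks at the start, on a standard diet and with no engineered allele named in the labels. Carbon tetrachloride (CCl4), a solvent that hepatocytes turn into radicals, was dissolved in olive oil and injected into the peritoneum 2 times a week (1 g per kg), and vehicle mice were given the oil without it. The liver was collected 6 days after the final injection, so the samples describe the chronically injured organ some days after a dose. The other libraries are a month 0 group, oil and CCl4 at month 2, and CCl4 at month 6, of which the month 2 groups serve below to ask which month 12 effects were already present. The labels number the libraries of a group as replicates. They name no animals, so each library is taken as 1 mouse. P-values measure the spread between libraries within groups, pooled over all 36 libraries of the series.

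Long exposure to CCl4 is a standard model of liver fibrosis. Hepatocytes around the central vein, where cytochrome P450 enzymes activate the compound, die and are replaced by division of the survivors, while macrophages clear debris and stellate cells, the vitamin A storing cells of the sinusoid, turn into matrix-producing myofibroblasts. A healthy hepatocyte spends much of its transcription on secreted plasma proteins, on the urea cycle and amino acid breakdown, on bile acid production and on the handling of foreign compounds, and long injury is known to lower several of these functions, to raise antioxidant defence and to bring back genes of the fetal liver.

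Each of the 12 libraries held between 21812315 and 28364932 counts. Levels are given as CPM, read counts scaled to a common library size, after TMM scaling. TMM sets library sizes from a trimmed mean of log ratios between libraries, which takes most genes as unchanged. Alb, which encodes albumin and marks hepatocytes, lay between 33651 and 70145 CPM (median 47222) in oil mice and between 43082 and 84159 CPM (median 51844) in CCl4 mice, so liver tissue was present in each library. Transcripts of the major urinary proteins took between 10.5% and 20.7% of all counts in oil mice and between 0.0414% and 1.24% in CCl4 mice, and plain scaling to library totals moved the median gene up by 0.54 on the log2 scale. For that reason counts under library totals alone are given beside those of most gene groups that were lower with TMM. Libraries that stood apart were month 12 oil replicate 2, with high mesothelial and endothelial transcripts and Krt19, oil replicate 6, with high Timp1 and Lox, CCl4 replicate 2, with high fetal and stress transcripts, and CCl4 replicate 6, with low metabolic transcripts. Pancreas transcripts, which mark tissue next to the liver, summed to between 117 and 28145 CPM over 12 genes in oil mice and between 38.5 and 3798 CPM in CCl4 mice, and with their level as a covariate 7537 genes were called in place of 7536.

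Of 15338 tested genes, 7536 were called at month 12, that is they had an adjusted p below 0.05 (49.1%), with 3975 higher (25.9%) and 3561 lower (23.2%) in CCl4. At least 2-fold differences were found for 1619 of the higher and 567 of the lower genes, and at least 4-fold differences for 570 and 143. In 12.1% of tested genes all CCl4 mice lay above all oil mice, and in 10.2% all lay below. With library totals alone 10331 of the 15338 genes were called higher and 592 lower, so most genes were higher under that scaling. List counts under library totals are to be read against these numbers, and list counts with TMM against 25.9% and 23.2%. Against the shares with TMM, the lists of matrix turnover, injury macrophages, antioxidant defence, mitosis and oncofetal and tumour-associated genes held more higher calls. Those of the urea cycle, amino acid breakdown and bile acid synthesis held more lower calls. The lists are described by their counts and medians, with the median over all tested genes at 0.014 on the log2 scale.

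**Figure D1:**
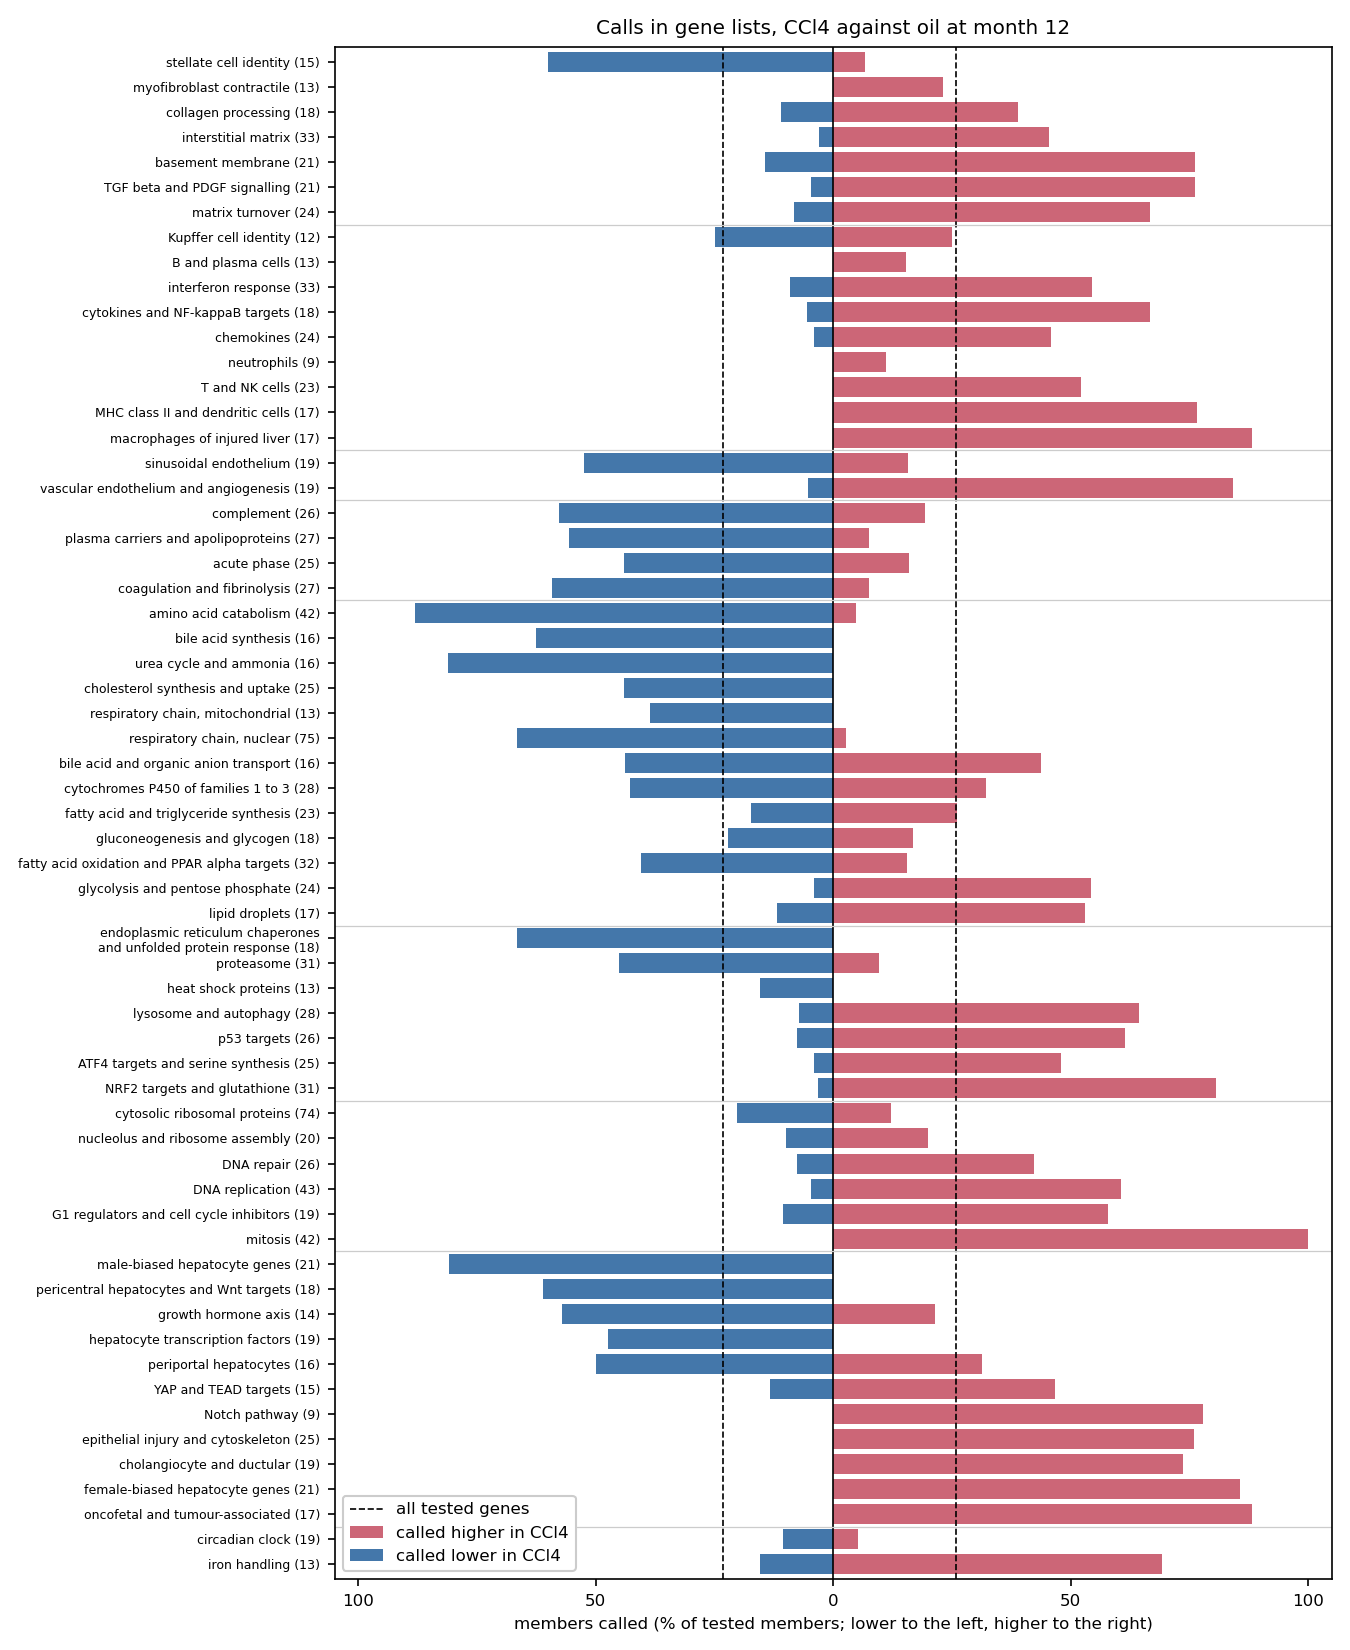
Share of tested members called higher (to the right) or lower (to the left) in CCl4 at month 12 for 61 gene lists, grouped by theme and without the 6 lists of other tissues, with the shares over all tested genes (25.9% higher and 23.2% lower) as dashed lines. All 42 mitosis genes were called higher, and 37 of 42 amino acid breakdown genes lower.

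Matrix genes rose in basement membranes and, with more overlap between the groups, in the interstitial matrix. Basement membranes are the sheets on which epithelium and endothelium rest. Of 21 tested genes of this list 16 rose and 3 fell (median log2 fold change 0.79), or 18 and 2 with library totals alone. Col4a1, a chain of type IV collagen (mm10, as for all positions, chromosome 8, 11198423 to 11312826), lay between 43.8 and 72.2 CPM (median 58.4) in oil mice and between 141 and 309 CPM (median 182) in CCl4 mice. The groups did not overlap (log2 fold change 1.79, SE 0.18, adjusted p = 1.47e-09), and its partner Col4a2 rose by 1.54 and the laminin chain gene Lama5 by 2.31. Against these, the laminin chain genes Lama3 and Lama1 fell by 1.65 and 1.25, with all CCl4 mice below all oil mice. The interstitial matrix, which holds the fibrillar collagens of scars, had 15 of 33 genes higher and 1 lower (median 0.61). With library totals alone 26 were higher and 0 lower. All CCl4 mice lay above all oil mice for 3 of the 33 genes, against 11 of 21 for basement membranes and 12.1% of all tested genes. The interstitial level, as the mean of log2(CPM + 1), lay between 3.50 and 4.71 in oil mice and between 4.49 and 4.55 in CCl4 mice. Col6a3, a chain of microfibrillar type VI collagen, rose by 1.34 (SE 0.15), and Ltbp2 and Col8a1 rose by 1.89 and 1.46.

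Col1a1, the main chain of scar collagen (chromosome 11, 94936224 to 94953042), lay between 6.65 and 47.7 CPM (median 18.1) in oil mice and between 29.9 and 45.9 CPM (median 37.2) in CCl4 mice. The CCl4 mice were close to each other, while the oil mice spread widely, with oil replicates 2 and 6 as high as the CCl4 mice. The difference was not called (log2 fold change 0.65, SE 0.36, adjusted p = 0.128), and without oil replicate 2 or oil replicate 6 it was 0.88 or 0.98 and called. Lox, which crosslinks collagen, lay between 0.775 and 9.32 CPM (median 2.12) in oil mice and between 2.89 and 4.54 CPM (median 3.76) in CCl4 mice, with the highest value in oil replicate 6, and Timp1, an inhibitor of matrix proteases, reached 15.7 CPM in the same library against at most 4.36 CPM in CCl4 mice. Neither was called (0.038 and -0.44), and without oil replicate 6 the values were 0.59 and 0.53, also not called. For Lox the sign turned without oil replicate 1, 3, 4 or 5 or CCl4 replicate 2 (lowest -0.19). Of the collagen processing list 7 of 18 rose, among them the propeptidase gene Adamts14 (2.08), the crosslinking enzyme Loxl2 (1.29) and the propeptidase enhancer Pcolce (1.96, and 1.12 without CCl4 replicate 6), and Bmp1, another propeptidase, fell by 0.56.

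Matrix turnover genes, the proteases that cleave matrix and their inhibitors, rose in 16 of 24 and fell in 2 (median 0.89). Timp4, a protease inhibitor, lay between 0.0453 and 0.319 CPM (median 0.192) in oil mice and between 1.46 and 16 CPM (median 6.32) in CCl4 mice. Mmp7, a protease of injured epithelium, rose by 5.25 (by 6.33 without oil replicate 4), and the collagenase gene Mmp13 by 3.33, both without overlap between the groups. Mmp12, a macrophage elastase (chromosome 9, 7344381 to 7369499), lay between 6.17 and 23.1 CPM (median 13.3) in oil mice and between 16.1 and 37.1 CPM (median 25.2) in CCl4 mice, with overlapping groups and a rise of 0.96 (SE 0.30, adjusted p = 0.00776). Of the ligands and receptors of transforming growth factor beta and platelet-derived growth factor, which drive stellate cells, 16 of 21 rose and 1 fell. Inhbb, an activin subunit, rose by 4.31 (by 3.66 without CCl4 replicate 2), the ligand Pdgfb by 2.22 and the ligand Tgfb2 by 2.22. Pdgfrb, the receptor on stellate cells and pericytes, lay between 9.07 and 18.8 CPM (median 9.95) in oil mice and between 19.5 and 21.9 CPM (median 20.9) in CCl4 mice (log2 fold change 0.84, SE 0.16, adjusted p = 4.39e-05). The groups did not overlap, and the highest oil value was that of replicate 2.

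Genes of resting stellate cells were lower as a group, with 9 of 15 called lower and 1 higher (median -0.56, and 6 lower and 4 higher with library totals alone). Hhip, an inhibitor of Hedgehog ligands (chromosome 8, 79965851 to 80058006), lay between 5.09 and 8.2 CPM (median 7.72) in oil mice and between 0 and 0.144 CPM (median 0.0316) in CCl4 mice. This was a fall of 7.37 (SE 0.33, adjusted p = 6.05e-18), and 2 of the CCl4 mice had no count. Without CCl4 replicate 4, the highest of its group, the difference was -8.19. Angptl6 fell by 1.67 and the collectin Colec10 by 1.42. In whole liver, fewer cells of a type and less RNA per cell cannot be told apart, which holds for all cell type lists here. The contractile genes of myofibroblasts moved little: 3 of 13 rose (median 0.097), namely Smtn (0.87), Tpm1 (0.77) and Tagln (0.61). Acta2, their usual marker, lay between 4.35 and 12.9 CPM (median 9.73) in oil mice and between 6.41 and 15 CPM (median 13.3) in CCl4 mice and was not called (log2 fold change 0.43, SE 0.30, adjusted p = 0.23).

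**Figure D2:**
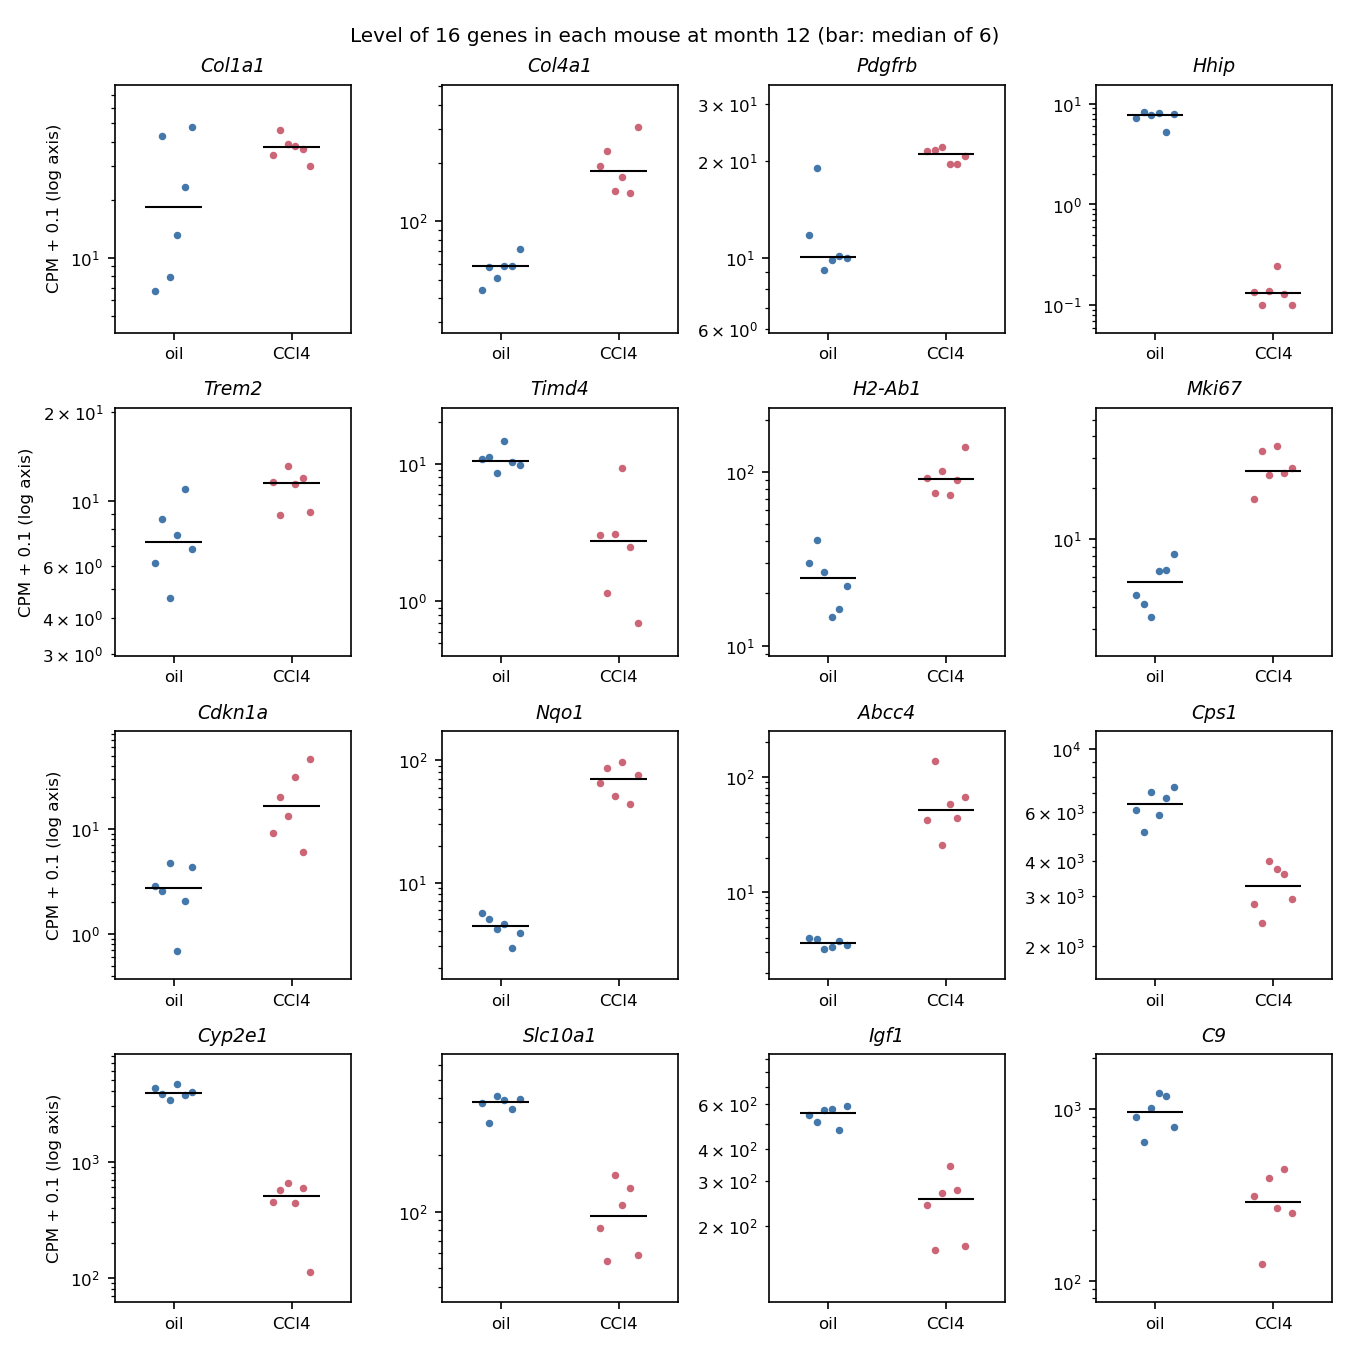
Level of 16 genes in each of the 6 oil and 6 CCl4 mice at month 12, as CPM plus 0.1 on log axes that differ between panels, with bars at the median. Col4a1, Nqo1 and Abcc4 lay higher in all CCl4 mice, Hhip, Cyp2e1 and Igf1 lower, and the oil mice spread over a wide range for Col1a1.

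Macrophage genes differed between incoming and resident cells. Markers of macrophages that enter injured liver rose in 15 of 17 (median 1.45), and in 11 of them all CCl4 mice lay above all oil mice. Cd63, a membrane protein of lysosomes, lay between 4.88 and 12.7 CPM (median 6.22) in oil mice and between 48.2 and 79.3 CPM (median 62.7) in CCl4 mice (log2 fold change 3.16, SE 0.23, adjusted p = 8.84e-13). Lpl, a lipase, rose by 2.13 and the fractalkine receptor gene Cx3cr1 by 2.30. Trem2, a lipid receptor of these cells (chromosome 17, 48346401 to 48354147), lay between 4.58 and 10.9 CPM (median 7.15) in oil mice and between 8.83 and 13 CPM (median 11.4) in CCl4 mice, with overlapping groups. Its rise of 0.56 (adjusted p = 0.0185) was not called without oil replicate 1 (0.49) or oil replicate 3 (0.44). Cd63 and Lpl are expressed by other liver cells as well.

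Kupffer cells are the resident macrophages of the sinusoid. Of their 12 tested identity genes 3 rose and 3 fell, close to the shares over all genes, with 6 higher and 3 lower with library totals alone. Cd163, a haemoglobin receptor, fell by 2.89 and lay between 33.9 and 51.2 CPM (median 38) in oil mice and between 3.12 and 10.3 CPM (median 4.54) in CCl4 mice. Timd4, a receptor for dying cells (chromosome 11, 46810800 to 46844332), lay between 8.48 and 14.4 CPM (median 10.4) in oil mice and between 0.602 and 9.12 CPM (median 2.66) in CCl4 mice (log2 fold change -1.76, SE 0.43, adjusted p = 0.000976), and CCl4 replicate 4 reached the oil range. Without that mouse the difference was -2.41. Clec4f, a lectin found on Kupffer cells, lay between 154 and 172 CPM (median 165) in oil mice and between 59.3 and 220.2 CPM (median 143) in CCl4 mice. It was not called (-0.30, adjusted p = 0.227). CCl4 replicates 2 and 6 were low and replicate 4 was above all oil mice. Without replicate 4 it was called lower (-0.48), as were 6 genes of the list in all. Il18bp, the iron exporter Slc40a1 and Spic rose by 0.67, 0.49 and 0.62.

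Antigen presentation rose. MHC class II molecules present peptides to helper T cells, and of this list with dendritic cell genes 13 of 17 rose and 0 fell (median 1.16). H2-Ab1, a class II chain (chromosome 17, 34257689 to 34269419), lay between 14.6 and 40.7 CPM (median 24.3) in oil mice and between 73.8 and 139 CPM (median 91.3) in CCl4 mice, without overlap (log2 fold change 1.93, SE 0.27, adjusted p = 5.57e-07). The invariant chain gene Cd74 rose by 2.00, H2-Eb1 by 2.14 and H2-DMb1 by 1.74. T and NK cell genes, all at low levels, rose in 12 of 23 (median 0.89), and in 6 when genes under 1 CPM in 6 libraries were left out. Gzmk, a granzyme, rose by 4.13, the T cell coreceptor gene Cd8a by 1.33 and the cytotoxic granule gene Nkg7 by 1.36. Cd3e, part of the T cell receptor complex, lay between 0.225 and 0.832 CPM (median 0.295) in oil mice and between 0.451 and 0.744 CPM (median 0.551) in CCl4 mice and was not called (0.60), although without oil replicate 2 it was (0.98).

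Of B and plasma cell genes 2 of 13 rose, Cd22 (0.85) and Cd79b (1.15), with 5 without oil replicate 2 and 8 without that library and CCl4 replicates 2 and 6. Neutrophil genes had 1 of 9 called, Csf3r (0.65), whose call was lost without oil replicate 3, 4 or 6 or CCl4 replicate 2 (between 0.57 and 0.61). Chemokines, which recruit these cells, rose in 11 of 24 and fell in 1. Ccl2, which attracts monocytes (chromosome 11, 82035571 to 82037453), lay between 0.542 and 1.68 CPM (median 1.22) in oil mice and between 1.35 and 7.9 CPM (median 3.32) in CCl4 mice (log2 fold change 1.66, SE 0.42, adjusted p = 0.00146). Ccl20 was at 0 in 5 oil mice and at 0.042 CPM in the remaining one, and lay between 0.602 and 4.56 CPM in CCl4 mice. Cxcl16 rose by 1.39 and Cx3cl1, the ligand of Cx3cr1, by 2.50, while Cxcl12 fell by 0.88. Cytokines and targets of NF-kappaB, a transcription factor of inflammation, rose in 12 of 18, with Vcam1 (2.02), Tnfaip3 (1.80) and Nfkb2 (1.54) as examples, and Il18 fell by 0.89. Interferon response genes rose in 18 of 33 and fell in 3 (median 0.51), with 1 lower without CCl4 replicate 6. Examples are the immunoproteasome gene Psmb8 (0.79) and the antiviral genes Mx1 (1.44) and Ifit2 (1.33). The related Mx2 fell by 0.70.

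Endothelial genes differed between vessel types. Those of general vascular endothelium and vessel growth rose in 16 of 19 (median 1.10). Esm1, a gene of endothelial tip cells, lay between 0.168 and 0.592 CPM (median 0.294) in oil mice and between 7.27 and 48.2 CPM (median 15.1) in CCl4 mice (log2 fold change 6.01, SE 0.47, adjusted p = 4.59e-12). The gap junction gene Gja5 rose by 2.20 and Pecam1 by 0.88. Cd34, which marks continuous endothelium (chromosome 1, 194938819 to 194961279), lay between 5.53 and 37.5 CPM (median 9.32) in oil mice and between 13.2 and 33.9 CPM (median 19.7) in CCl4 mice, and the top oil value, that of replicate 2, lay above every CCl4 mouse. It was not called (0.63), and without that library it was (1.24). Sinusoidal endothelium is fenestrated and carries scavenger receptors: 10 of its 19 genes fell and 3 rose, with 0 lower and 7 higher under library totals alone and 6 lower in a fit of these 2 groups only. Ehd3 fell by 0.79, the Wnt amplifier Rspo3 by 0.82 and Dnase1l3 by 0.78, and Flt4, the receptor for lymphatic growth factor, rose by 1.49. Stab2, a hyaluronan receptor of these cells, lay between 82.8 and 107 CPM (median 94.7) in oil mice and between 60.7 and 115 CPM (median 82.4) in CCl4 mice and was not called (-0.15), and with library totals alone it was called higher (0.40).

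Nitrogen metabolism genes were lower. In the list of the urea cycle and ammonia handling, which turns toxic ammonia into urea, 13 of 16 fell and 0 rose (median -0.77), and 5 fell and 2 rose with library totals alone. Cps1, which makes the entry step (chromosome 1, 67123026 to 67231259), lay between 5061 and 7322 CPM (median 6402) in oil mice and between 2416 and 4020.0 CPM (median 3270.1) in CCl4 mice, without overlap (log2 fold change -0.96, SE 0.17, adjusted p = 1.58e-05). Slc25a15, the ornithine carrier, fell by 0.89, Oat by 2.21 and Otc by 1.16. Ass1 (chromosome 2, 31470207 to 31520672) lay between 1789 and 2923 CPM (median 2070.2) in oil mice and between 525 and 2169 CPM (median 1409) in CCl4 mice and fell by 0.79, but was not called without oil replicate 2 and CCl4 replicates 2 and 6 (-0.51), in a fit of these 2 groups (-0.77) or with library totals alone (-0.25). The list level, a mean of log2(CPM + 1), lay between 8.36 and 8.73 in oil mice and between 6.80 and 7.99 in CCl4 mice, lowest in replicate 6.

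Enzymes of amino acid breakdown showed the largest share of lower genes among the 61 lists plotted, 37 of 42 with 2 higher (median -0.82), and 19 lower and 4 higher with library totals alone. In 29 of them all CCl4 mice lay below all oil mice. Cbs, which starts the transsulfuration of homocysteine, fell by 1.14, Dmgdh of choline breakdown by 1.44 and Gstz1 of tyrosine breakdown by 1.15. Tat, which opens tyrosine breakdown (chromosome 8, 109990437 to 109999803), lay between 714 and 1432 CPM (median 1205) in oil mice and between 313 and 1046 CPM (median 577) in CCl4 mice (log2 fold change -0.92, SE 0.30, adjusted p = 0.0109). Against the group, the serine dehydratase genes Sds and Sdsl rose by 0.77 and 0.71. Of glucose production and glycogen genes 3 of 18 rose and 4 fell (10 higher and 1 lower with library totals alone), with the glycogen phosphorylase gene Pygl at -0.85, and Pklr and Ugp2 at 0.69 and 0.56. With TMM their shares, 16.7% higher and 22.2% lower, were below the 25.9% and 23.2% over all tested genes. Pck1, which makes phosphoenolpyruvate for new glucose, lay between 1485 and 2222 CPM (median 1666) in oil mice and between 670.5 and 2069 CPM (median 954) in CCl4 mice, and CCl4 replicate 4 lay in the oil range. Without CCl4 replicate 2, 1 gene of the list was called lower in place of 4, and without CCl4 replicates 5 or 6 or oil replicate 5, 2 were. The fall of Pck1 by 0.69 (adjusted p = 0.0345) was not called when CCl4 replicate 1, 2, 3, 5 or 6 or oil replicate 3 or 5 was left out.

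Sugar breakdown moved the other way. Of glycolysis and pentose phosphate genes 13 of 24 rose and 1 fell. Pgd and Tkt, enzymes of the pentose phosphate pathway that supplies NADPH, rose by 1.58 and 0.95 (SE 0.13 and 0.087). Pkm, the pyruvate kinase of non-hepatocytes and of fetal liver (chromosome 9, 59656368 to 59679375), lay between 26.7 and 45.1 CPM (median 34.3) in oil mice and between 56 and 153 CPM (median 70.7) in CCl4 mice, and Hk2, the inducible hexokinase (chromosome 6, 82725025 to 82774454), lay between 3.13 and 5.94 CPM (median 4.15) in oil mice and between 9.42 and 27 CPM (median 14.1) in CCl4 mice. Both rose without overlap (1.28 and 1.81, adjusted p = 1.69e-05 and 4.48e-07). Ldha fell by 0.52 with TMM and lay at 0.038 with library totals alone.

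Fat storage genes rose, while those of fat burning changed unevenly. Of lipid droplet genes 9 of 17 rose and 2 fell (median 0.73). Cidec, which fuses lipid droplets (chromosome 6, 113424634 to 113435760), lay between 1.41 and 3.4 CPM (median 2.17) in oil mice and between 2.55 and 32.7 CPM (median 13.3) in CCl4 mice (log2 fold change 2.84, SE 0.40, adjusted p = 4.41e-07), and CCl4 replicate 6 lay in the oil range. The fatty acid receptor gene Cd36 rose by 2.06 and the droplet coat gene Plin3 by 1.05, and Mgll, a lipase, fell by 0.80. Of fatty acid oxidation genes 13 of 32 fell and 5 rose, with 2 lower and 17 higher under library totals alone. The electron carrier genes Etfa and Etfb fell by 1.00 and 0.66 and the fatty acid binding protein gene Fabp1 by 1.76, and the PPAR alpha targets Acot2 and Cyp4a14 rose by 1.40 and 3.03, the latter by 3.94 without oil replicate 2. Cpt1a, the gate of mitochondrial fat burning, lay between 191 and 301 CPM (median 202) in oil mice and between 165 and 295 CPM (median 231) in CCl4 mice and was not called (0.055). Among genes of fatty acid and triglyceride synthesis 6 of 23 rose and 4 fell (13 higher and 1 lower with library totals alone). With TMM these shares, 26.1% and 17.4%, were close to or below the 25.9% and 23.2% over all tested genes. Scd2, a desaturase, lay between 8.93 and 18.3 CPM (median 11.6) in oil mice and between 149 and 282 CPM (median 179) in CCl4 mice, a rise of 3.95 (SE 0.25). Me1 rose by 0.82, and Acss2 and Dgat2 fell by 1.19 and 0.64.

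Sterol and bile acid genes were lower with TMM. Cholesterol synthesis and uptake genes fell in 11 of 25 and rose in 0 with TMM, with 2 lower and 5 higher under library totals alone. Ebp and Tm7sf2, late enzymes of the pathway, fell by 0.98 and 1.04, and Stard4, a sterol carrier, by 0.73. Bile acid synthesis genes fell in 10 of 16 and rose in 0 (median -0.81), and 7 fell and 4 rose with library totals alone. Cyp7b1, of the acidic pathway, fell by 3.96, Cyp27a1 by 1.18 and the bile acid ligase gene Slc27a5 by 1.38. Cyp7a1, the first enzyme of the classic pathway (chromosome 4, 6265612 to 6275633), lay between 46 and 822 CPM (median 86.1) in oil mice and between 6.8 and 177 CPM (median 81.6) in CCl4 mice. The groups overlapped widely and it was not called (log2 fold change -1.46, SE 0.67, adjusted p = 0.0716), although without CCl4 replicate 5 or oil replicates 1 or 5 it was (between -1.80 and -1.66). Oil replicate 4 was the highest mouse by far, and without it the difference was -0.43 and not called.

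Bile acid and organic anion carriers changed in both directions, 7 of 16 higher and 7 lower (8 higher and 7 lower with library totals alone). Slc10a1, the sodium-driven uptake carrier of the sinusoidal membrane (chromosome 12, 80953183 to 80968705), lay between 296 and 412 CPM (median 384) in oil mice and between 54.6 and 156 CPM (median 94.6) in CCl4 mice (log2 fold change -1.91, SE 0.20, adjusted p = 1.55e-09), and the uptake carrier gene Slco1a1 fell by 7.41. Abcc4, an export pump of the same membrane (chromosome 14, 118482692 to 118706219), lay between 3.08 and 3.92 CPM (median 3.52) in oil mice and between 25.7 and 139 CPM (median 51.2) in CCl4 mice (log2 fold change 4.15, SE 0.24, adjusted p = 3.97e-15). No library of one group lay within the range of the other for either carrier. The export pump gene Abcc3 rose by 1.63 and the sterol exporter Abcg5 by 1.12. Cytochromes P450 of families 1 to 3, which oxidise foreign compounds, rose in 9 and fell in 12 of 28 (13 higher and 9 lower with library totals alone). Cyp2e1, the enzyme known for turning CCl4 into its radical (chromosome 7, 140763739 to 140774987), lay between 3394 and 4606 CPM (median 3867) in oil mice and between 112 and 651 CPM (median 510.0) in CCl4 mice (log2 fold change -3.08, SE 0.29, adjusted p = 2.07e-10), with the lowest value in CCl4 replicate 6. Cyp2c50 and Cyp2c29 fell by 2.33 and 1.93, and Cyp3a41a rose by 5.73. Several of these families hold near-identical copies, between which the counting could have divided reads.

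The calls of respiratory chain genes depended on the scaling. Of 75 nuclear subunit genes 50 fell and 2 rose with TMM (median -0.31), while with library totals alone 0 fell and 36 rose (median 0.23), and 29 fell in a fit of these 2 groups only. Atp5l, Cox7a2 and Ndufs4 fell by 0.75, 0.66 and 0.62 with TMM, all without overlap. The list median was thus -0.31 against 0.014 over all tested genes, and under library totals 0.23 against 0.56. The mitochondrial subunit genes fell in 5 of 13 with TMM, in 1 without CCl4 replicate 2, in 3 without oil replicate 1 or CCl4 replicate 4, in 8 without CCl4 replicate 6 and in 0 with library totals alone.

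Secreted proteins of hepatocytes fell in part. Complement genes fell in 15 of 26 and rose in 5 (median -0.57, with 10 lower and 10 higher under library totals alone). That scaling called 10331 of all 15338 tested genes higher and 592 lower. C9, which forms the pore of the attack complex (chromosome 15, 6445327 to 6498751), lay between 646 and 1243 CPM (median 965) in oil mice and between 127 and 451 CPM (median 291) in CCl4 mice, without overlap (log2 fold change -1.68, SE 0.19, adjusted p = 1.24e-08). C8a and C8b, of the same complex, fell by 1.98 and 2.47 and the regulator gene Susd4 by 3.34. C1qa and C1qb, which macrophages make, rose by 0.95 and 0.91. Coagulation and fibrinolysis genes fell in 16 of 27 with TMM, in 9 in a fit of these 2 groups only and in 1 with library totals alone, under which 13 rose. Plg (plasminogen), Proc (protein C) and F7 (factor VII) fell by 0.72, 0.70 and 0.66 with TMM, and the endothelial factor Vwf rose by 0.91.

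Plasma carriers and apolipoproteins fell in 15 and rose in 2 of 27, or 4 and 10 with library totals alone. Apob, the backbone of secreted lipoproteins, fell by 0.93, Apoc4 by 0.88 and the antioxidant esterase gene Pon1 by 1.93, and Apoc2 and Apoa4 rose by 2.26 and 1.82. Alb, given above, was not called (log2 fold change 0.24, SE 0.17, adjusted p = 0.235), and with library totals alone it was called higher (0.79). Acute phase genes, which hepatocytes raise in systemic inflammation, fell in 11 and rose in 4 of 25, or 6 and 8 with library totals alone. Crp fell by 1.13, Saa4 by 1.89 and Itih4 by 0.89, while Il1rn, the interleukin 1 receptor antagonist, rose by 3.55. A2m was called higher (4.56), with CCl4 replicate 2 at 69.96 CPM. The other CCl4 mice lay between 0.111 and 1.91 CPM, and without replicate 2 the difference was 0.40 and not called, or -0.60 without oil replicate 2 and CCl4 replicate 6 as well.

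**Figure D3:**
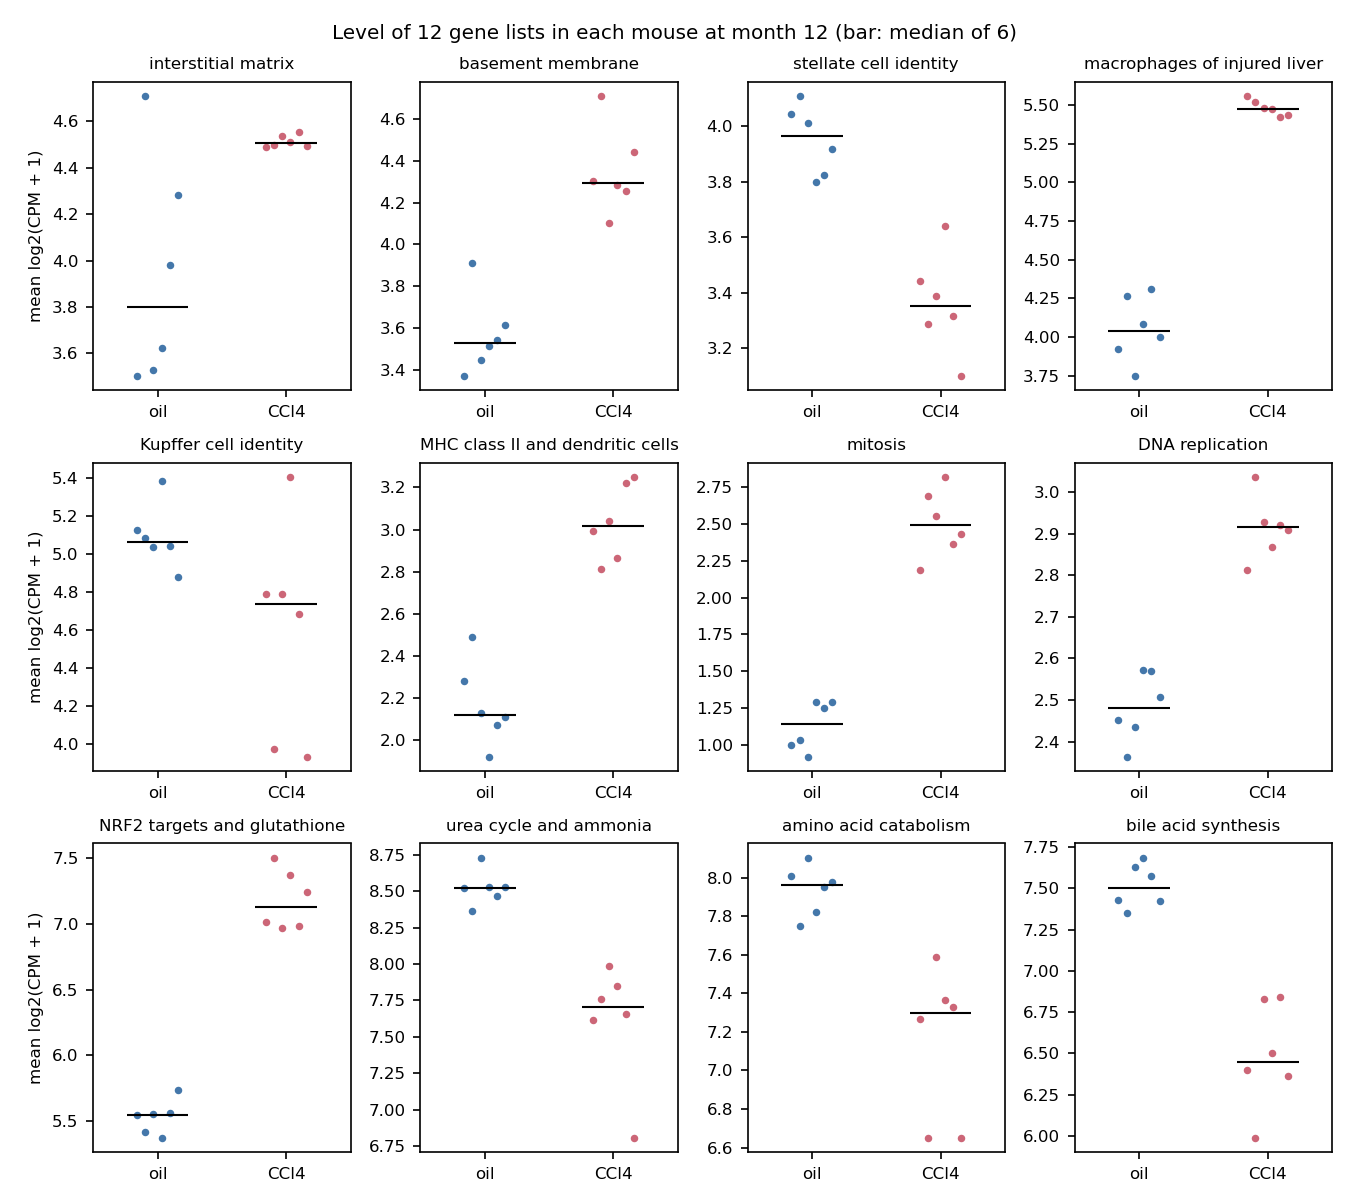
Level of 12 gene lists in each mouse at month 12, as the mean of log2(CPM + 1) over tested members on axes that differ between panels, with bars at the median of 6. Mitosis and NRF2 target levels were higher and stellate cell identity, urea cycle and bile acid synthesis levels lower in all CCl4 mice than in all oil mice, while interstitial matrix and Kupffer cell levels overlapped.

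Antioxidant genes rose together. NRF2 is the transcription factor that answers oxidative and electrophilic stress through antioxidant response elements, and 25 of its 31 target and glutathione genes rose and 1 fell (median 1.22), 20 of them without overlap. Some members are counted in more than 1 list, such as Abcc4, also among the carriers, and Pgd, also in sugar breakdown. Cbr3, a carbonyl reductase, lay between 0.499 and 1.78 CPM (median 0.794) in oil mice and between 43.7 and 98.5 CPM (median 79) in CCl4 mice (log2 fold change 6.37, SE 0.26, adjusted p = 5.23e-19). Nqo1, the quinone reductase (chromosome 8, 107388225 to 107403206), lay between 2.79 and 5.51 CPM (median 4.28) in oil mice and between 43.6 and 97.3 CPM (median 70.1) in CCl4 mice, a rise of 4.03. Slc7a11, the cystine carrier that feeds glutathione synthesis (chromosome 3, 49892526 to 50443614), lay between 2.42 and 5.81 CPM (median 4.04) in oil mice and between 30.2 and 345 CPM (median 106) in CCl4 mice, a rise of 5.02 (SE 0.42). Gstp1, a glutathione transferase with near-identical neighbours, fell by 0.89.

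The promoters of such genes can be read for the letters of the response element. RefSeq promoters on GRCm38.p6 (mm10) were found for 11151 of the 15338 tested genes, the first listed start per gene, and the 250 bases before it were searched on both strands. The core of the antioxidant response element, TGACNNNGC, was present for 6 of 27 list members with a promoter (22.2%), for 7 of 35 mitosis genes (20%), for 5 of 35 DNA replication genes (14.3%) and for 11.8% of all. Of the 6, Abcc4, G6pdx and Ugdh rose (4.15, 1.32 and 1.13), while Gclm, Gsta3 and Prdx1 were at -0.089, -0.067 and -0.031. Abcc4, which had the largest rise of these 6, is shown because it is also the carrier described above. Its upstream bases at chr14:118706220-118706469, minus strand, have the match, on the opposite strand of the gene, in capitals.
Abcc4: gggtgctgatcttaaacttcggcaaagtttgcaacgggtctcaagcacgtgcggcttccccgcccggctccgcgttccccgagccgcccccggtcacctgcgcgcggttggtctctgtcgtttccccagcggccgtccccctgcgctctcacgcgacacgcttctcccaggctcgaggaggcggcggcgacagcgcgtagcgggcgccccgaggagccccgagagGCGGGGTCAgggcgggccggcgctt
A match is a description of the letters, and such elements are known to lie farther from the start as well.

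Other stress programmes differed from each other. Targets of ATF4, the factor of the integrated stress response, with serine synthesis rose in 12 of 25 and fell in 1. Slc7a11 is a member of both this list and the NRF2 list. Fgf21, a hormone released by stressed liver, lay between 0.238 and 0.993 CPM (median 0.483) in oil mice and between 4.67 and 12.8 CPM (median 7.85) in CCl4 mice (log2 fold change 3.88, SE 0.46, adjusted p = 2.79e-08), and Psat1, of serine synthesis, rose by 3.25. Gdf15, another stress hormone of the list, lay between 3.51 and 20.05 CPM (median 7.53) in oil mice and between 4.49 and 14.9 CPM (median 10.5) in CCl4 mice and was not called (log2 fold change 0.17, SE 0.48, adjusted p = 0.797). Chaperones of the endoplasmic reticulum and the unfolded protein response fell in 12 of 18 with TMM (median -0.53), and in 2 with library totals alone. Sel1l and Edem1, of misfolded protein disposal, fell by 0.84 and 0.65 and the factor gene Xbp1 by 0.79, while Hspa5, the main chaperone, lay between 721 and 2033 CPM (median 1450.3) in oil mice and between 599 and 1438 CPM (median 894) in CCl4 mice and was not called (log2 fold change -0.45, SE 0.26, adjusted p = 0.149). Of cytosolic heat shock genes 2 of 13 fell with TMM (3 higher and 0 lower with library totals alone), Dnaja1 by 0.88 and Hsph1 by 0.96, the latter not called without oil replicate 2 (-0.74).

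Targets of p53, the guardian of DNA integrity, rose in 16 of 26 and fell in 2. Phlda3, an inhibitor of AKT, rose by 3.27, Psrc1 by 4.47 (by 3.56 without CCl4 replicate 2) and Gtse1 by 3.05, the last 2 of which are also known as genes of dividing cells. Cdkn1a, the cell cycle inhibitor p21 (chromosome 17, 29090976 to 29100727), lay between 0.587 and 4.67 CPM (median 2.62) in oil mice and between 5.92 and 46.3 CPM (median 16.6) in CCl4 mice (log2 fold change 2.91, SE 0.56, adjusted p = 6.23e-05), without overlap. Lysosome and autophagy genes rose in 18 of 28 and fell in 2, with the hydrolase genes Ctsa (0.53), Hexa (0.93) and Ctsz (0.75) higher and the membrane protein gene Lamp2 (-0.73) lower. Proteasome genes fell in 14 and rose in 3 of 31 with TMM, and fell in 0 and rose in 24 with library totals alone.

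Genes of cell division rose as a block. All 42 of 42 tested mitosis genes were called higher (median 2.34), in 41 of them all CCl4 mice lay above all oil mice, and the count was the same with library totals alone. Mki67, the usual marker of cycling cells (chromosome 7, 135689784 to 135716361), lay between 3.4 and 8.06 CPM (median 5.51) in oil mice and between 17.1 and 34.8 CPM (median 25.1) in CCl4 mice, without overlap (log2 fold change 2.26, SE 0.32, adjusted p = 4.65e-07). Cenpf, a kinetochore protein, lay between 0.684 and 1.93 CPM (median 1.21) in oil mice and between 6.59 and 13.8 CPM (median 11.2) in CCl4 mice and rose by 3.05. Cdk1, the kinase that drives entry into mitosis, lay between 0.729 and 1.99 CPM (median 1.31) in oil mice and between 4.92 and 12.5 CPM (median 8.83) in CCl4 mice and rose by 2.67, and the spindle gene Nusap1 rose by 1.95. Which cells carried these transcripts was not tested, since the libraries are of whole liver.

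Because these genes moved together, their promoters were read for the elements known from cell cycle genes, the CCAAT box (CCAAT) and the cell cycle homology region (TTTGAA), on both strands of the 250 bases before the start. Matches of the 2 motifs did not overlap each other in the sequences printed. Of 35 mitosis genes with a promoter, 27 held a CCAAT box (77.1%, and 36.3% of all 11151) and 13 a cell cycle homology region (37.1%, and 11.2% of all). Of 35 DNA replication genes 20 held the first (57.1%) and 5 the second (14.3%). Shown are Cenpf and Cdk1, the 2 mitosis genes with the smallest p, at chr1:189688087-189688336 and chr10:69352913-69353162, both on the minus strand of GRCm38.p6, with matches in capitals.
Cenpf: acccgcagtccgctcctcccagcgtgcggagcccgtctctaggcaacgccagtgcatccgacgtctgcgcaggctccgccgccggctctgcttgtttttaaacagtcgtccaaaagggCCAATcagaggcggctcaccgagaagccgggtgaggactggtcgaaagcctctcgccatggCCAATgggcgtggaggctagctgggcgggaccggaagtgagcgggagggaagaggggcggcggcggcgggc
Cdk1: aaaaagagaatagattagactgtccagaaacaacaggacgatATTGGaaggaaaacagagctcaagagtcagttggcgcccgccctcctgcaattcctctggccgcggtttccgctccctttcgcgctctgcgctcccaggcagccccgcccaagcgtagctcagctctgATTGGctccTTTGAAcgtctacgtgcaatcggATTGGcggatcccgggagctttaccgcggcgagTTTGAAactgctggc
Cenpf held 2 CCAAT boxes, from 132 and 71 bases before its start. Cdk1 held 3, as ATTGG on the strand of the gene, and 2 cell cycle homology regions from 71 and 15 bases before its start.

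DNA replication genes rose in 26 of 43 and fell in 2 (median 0.52). Mcm5, of the helicase that opens DNA (chromosome 8, 75109569 to 75128439), lay between 2.6 and 3.78 CPM (median 3.25) in oil mice and between 6.4 and 8.86 CPM (median 6.98) in CCl4 mice (log2 fold change 1.17, SE 0.20, adjusted p = 1.03e-05), and its partner Mcm6 rose by 2.19, the ligase gene Lig1 by 1.72 and the nucleotide reductase gene Rrm2 by 1.71. The 2 genes that fell did so without overlap. Mcm10, a helicase cofactor (chromosome 2, 4989714 to 5012791), lay between 38.2 and 134 CPM (median 66.7) in oil mice and between 6.02 and 33.4 CPM (median 15.1) in CCl4 mice (log2 fold change -2.12, SE 0.36, adjusted p = 9.12e-06), and E2f8, a repressor of the E2F family, lay between 5.77 and 18.9 CPM (median 12.5) in oil mice and between 2.58 and 5.2 CPM (median 3.8) in CCl4 mice (log2 fold change -1.65, SE 0.32, adjusted p = 6.23e-05). Both kept their direction and their call under the 22 alternatives run for them. DNA repair genes rose in 11 of 26 and fell in 2, with Rad54b (2.43), Brca1 (1.66) and Fancd2 (2.06) as examples.

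Regulators of the step before replication rose in 11 of 19 and fell in 2, both drivers and brakes. Ccnd1, cyclin D1 (chromosome 7, 144929931 to 144939925), lay between 15 and 38.2 CPM (median 29.1) in oil mice and between 46.1 and 64.7 CPM (median 59.2) in CCl4 mice (log2 fold change 1.04, SE 0.26, adjusted p = 0.00111). Cdkn2a, which encodes the senescence inhibitors p16 and p19 (chromosome 4, 89274471 to 89294653), lay between 0.126 and 0.866 CPM (median 0.305) in oil mice and between 0.943 and 9.05 CPM (median 1.25) in CCl4 mice, with CCl4 replicate 2 far above the others, and rose by 2.70 (SE 0.59, adjusted p = 0.000284), or by 1.75 without that library. Its neighbour Cdkn2b, the inhibitor p15, rose by 3.78 and Cdkn2c by 1.25. Myc, a driver of growth, lay between 0.856 and 11.2 CPM (median 2.4) in oil mice and between 4.69 and 8.65 CPM (median 6.33) in CCl4 mice and was not called (log2 fold change 0.47, SE 0.51, adjusted p = 0.468). Ribosome genes did not follow: cytosolic ribosomal protein genes rose in 9 and fell in 15 of 74 with TMM (median -0.034), and 71 rose with library totals alone, under which the median of all genes was 0.56 and that of the list 0.51. Without oil replicate 4, 24 ribosomal protein genes were called lower, and without CCl4 replicate 6, 9 were, and the higher count lay between 4 and 14 when 1 library was left out. Ribosome assembly genes rose in 4 and fell in 2 of 20, or 18 and 0 with library totals alone.

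Many epithelial genes of bile ducts rose, as did most tested genes of an oncofetal and tumour-associated list. The cholangiocyte list had 14 of 19 genes higher and 0 lower (median 1.94). Anxa13, an annexin of epithelial membranes, lay between 0.475 and 1.05 CPM (median 0.86) in oil mice and between 25.2 and 55.9 CPM (median 36.2) in CCl4 mice (log2 fold change 5.57, SE 0.57, adjusted p = 1.39e-09), Sox4 rose by 2.35 and the cilium gene Pkhd1 by 1.31. The defining markers did not follow. Krt19, the keratin of duct cells (chromosome 11, 100140810 to 100148665), lay between 1.54 and 13 CPM (median 3.81) in oil mice and between 2.41 and 4.65 CPM (median 3.43) in CCl4 mice, highest in oil replicate 2, and was not called (log2 fold change -0.37, SE 0.49, adjusted p = 0.561), or 0.25 without that library. Sox9, the factor of duct cells and of hepatocytes turning into them (chromosome 11, 112782224 to 112787760), lay between 2.1 and 3.74 CPM (median 2.99) in oil mice and between 2.91 and 8.5 CPM (median 4.18) in CCl4 mice and was not called (log2 fold change 0.63, SE 0.34, adjusted p = 0.123).

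Oncofetal and tumour-associated genes, known from fetal liver or from liver tumours, rose in 15 of 17 tested (median 3.70), of 22 listed. Lin28b, Sall4, Trim71 and Igf2bp1 did not pass the filter on low counts. Summed over 6 mice, oil before CCl4, they had 4 and 5, 2 and 4, 20 and 42, and 21 and 44 raw counts. H19 was not among the gene symbols. Ly6d lay between 0.544 and 1.82 CPM (median 1.13) in oil mice and between 144 and 312 CPM (median 209) in CCl4 mice (log2 fold change 7.43, SE 0.63, adjusted p = 2.42e-11), Golm1 of the Golgi rose by 2.91 and the growth factor gene Igf2 by 6.50 (by 5.67 without CCl4 replicate 6). Afp, the fetal albumin (chromosome 5, 90490737 to 90508907), lay between 1.62 and 2.77 CPM (median 1.79) in oil mice and between 5.59 and 360.5 CPM (median 27.9) in CCl4 mice, without overlap, and Gpc3, a surface proteoglycan (chromosome X, 52272426 to 52613950), lay between 2.3 and 9.31 CPM (median 3.04) in oil mice and between 3.61 and 351 CPM (median 41.5) in CCl4 mice. CCl4 replicate 6 lay in the oil range for Gpc3, and both genes were highest in CCl4 replicate 2. They rose by 5.41 and 4.48, or by 3.93 and 3.23 without it. Genes of epithelial injury and the cytoskeleton rose in 19 of 25 and fell in 0, with Anxa5 (1.81, SE 0.089), Lgals1 (2.46) and S100a11 (2.00). Targets of YAP, a sensor of tissue stiffness, rose in 7 of 15 and fell in 2, led by Ptpn14 (2.27), Crim1 (0.69) and Axl (0.83). Yap1 itself fell by 0.45 with TMM and lay at 0.10 with library totals alone. Notch pathway genes, which guide duct formation and vessel growth, rose in 7 of 9, with Dll4 (1.34), Nrarp (1.77) and Hey1 (1.52).

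Zone markers of hepatocytes were lower with TMM. Wnt signals from the central vein set the pericentral zone, and of this list 11 of 18 fell and 0 rose (median -1.09), with 7 lower and 1 higher under library totals alone. Glul, glutamine synthetase of the cells next to the vein (chromosome 1, 153899944 to 153909723), lay between 738 and 1118 CPM (median 812) in oil mice and between 174 and 1483 CPM (median 265) in CCl4 mice. The CCl4 group held 5 mice between 174 and 307 CPM, below all oil mice, and replicate 2 above them all, and the fall was 0.94 (SE 0.30, adjusted p = 0.0105), which was not called in a fit of these 2 groups (-0.92) and was larger without replicate 2 (-1.80). Axin2, a direct Wnt target (chromosome 11, 108920349 to 108950783), lay between 2.02 and 6.45 CPM (median 4.6) in oil mice and between 1.24 and 14.4 CPM (median 3.72) in CCl4 mice, again highest in CCl4 replicate 2, and was not called (log2 fold change 0.088, SE 0.33, adjusted p = 0.85), or -0.59 without that library, also not called. Gulo, of vitamin C synthesis, fell by 1.32 and the Wnt inhibitor gene Notum by 1.38.

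Periportal genes fell in 8 and rose in 5 of 16 with TMM, or 2 and 6 with library totals alone, and rose in 3 without oil replicate 2, oil replicate 3 or CCl4 replicate 2. Cyp2f2, their usual marker (chromosome 7, 27119909 to 27133660), lay between 557 and 751 CPM (median 689) in oil mice and between 137 and 425 CPM (median 356) in CCl4 mice (log2 fold change -1.05, SE 0.17, adjusted p = 5.48e-06), and Hal, of histidine breakdown, fell by 1.17. The lipid droplet enzyme Hsd17b13 and Aldh1b1 rose by 1.38 and 1.16. Of 19 hepatocyte transcription factors 9 fell with TMM, and 2 fell and 5 rose with library totals alone, with Esr1 (-1.06) and Foxa1 (-1.27) lower. Hnf4a, the central regulator of hepatocyte identity (chromosome 2, 163506808 to 163572910), lay between 326 and 433 CPM (median 383) in oil mice and between 299 and 408 CPM (median 337) in CCl4 mice and was not called (log2 fold change -0.16, SE 0.12, adjusted p = 0.278), and with library totals alone it was called higher (0.39).

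Growth hormone reaches the male liver in pulses and sets its sex-specific genes through STAT5. Of the 14 genes of this axis 8 fell and 3 rose (5 and 3 with library totals alone). Igf1, the main hormone made in answer to it (chromosome 10, 87858265 to 87937042), lay between 474 and 585 CPM (median 554) in oil mice and between 161 and 343 CPM (median 254) in CCl4 mice, without overlap (log2 fold change -1.16, SE 0.12, adjusted p = 2.77e-09), and the receptor gene Ghr fell by 1.58 and Igfals by 1.10. Igfbp1, a binding protein that also answers stress, lay between 13.8 and 70.2 CPM (median 44.6) in oil mice and between 37.7 and 1723 CPM (median 311) in CCl4 mice and rose by 3.50, or by 2.61 without CCl4 replicate 2. Igfbp3 was called higher (1.86), with CCl4 replicates 2 and 6 at 186 and 94.1 CPM and the other CCl4 mice at most 19.5 CPM, and without replicate 2 the difference was 1.04, still called, while without those 2 and oil replicate 2 it was not (0.22). Male-biased genes fell in 17 of 21 and rose in 0 (median -2.72, with 14 lower and 1 higher under library totals alone), and female-biased genes rose in 18 of 21 and fell in 0 (median 3.17). Mup3, a major urinary protein, lay between 6713 and 10306 CPM (median 9020.3) in oil mice and between 43.7 and 637 CPM (median 306) in CCl4 mice (near-identical copies make its count uncertain), and Rtn4, a gene of the female-biased list, rose by 1.99 (SE 0.17).

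Iron genes rose in 9 of 13 and fell in 2. The ferritin gene Fth1 rose by 0.72 and the reductase gene Steap3 by 0.81. Hamp, hepcidin, which blocks iron export, lay between 190.0 and 461 CPM (median 296) in oil mice and between 5.42 and 228 CPM (median 93.5) in CCl4 mice and fell by 1.47, with a call lost in a fit of these 2 groups (-1.45), while its paralogue Hamp2 rose by 2.39. Few clock genes were called, 1 of 19 higher (Per1, 1.27) and 2 lower (Clock, -0.66, and Hlf, -0.59, the latter not called without oil replicate 4 or CCl4 replicates 2 or 4, between -0.67 and -0.036 over the alternatives), or 5 higher and 0 lower with library totals alone. Without oil replicate 4, 2 clock genes were called higher and 4 lower, and without CCl4 replicate 6, 4 were called lower. The sources used here do not give the time of day at sampling. Lists of other tissues gave no calls for mesothelium, pancreas and skeletal muscle. All 3 tested adipose genes fell (median -1.42), among them Adipoq, which encodes a fat cell hormone (-2.36), with 0 called without oil replicate 6, and 1 of 3 intestinal genes, Reg3g (-3.26), with 0 called without oil replicate 4. The summed adipose level lay between 0.589 and 6.25 CPM in oil mice and between 0.212 and 1.46 CPM in CCl4 mice. The summed levels lay in oil and CCl4 mice, in this order, between 20.3 and 142 and between 8.99 and 48.7 CPM for mesothelium. For skeletal muscle they lay between 0.585 and 203 and between 0.672 and 252 CPM. Of 7 erythroid genes 2 rose, among them the band 3 gene Slc4a1 (1.98), and Alas2 of haem synthesis fell (-0.76), while 6 rose without oil replicate 2 or CCl4 replicates 3 or 5 and 1 without oil replicates 1, 3 or 4 or CCl4 replicates 2 or 4. Without oil replicate 2, 1 mesothelial gene was called higher, and without other single oil libraries or CCl4 replicate 1 up to 2 were called lower.

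The 6 CCl4 mice were not alike. CCl4 replicate 2 had the highest values of Afp (360.5 CPM against at most 81.2 in the others), Gpc3 (351 against 82.9), Slc7a11 (345 against 179), Abcc4, Cdkn2a, Pkm, Glul and Axin2. Glul and Axin2 lay above all oil mice in this library. CCl4 replicate 6 had the lowest values of Cyp2e1, Glul, Timd4 and the urea cycle list, the highest of Sox9 (8.5 CPM), Cdkn1a (46.3 CPM) and Igf2 (358 CPM), and for Afp the lowest of its group (5.59 CPM). Replicates 1 and 4 had Afp at 47.5 and 81.2 CPM, and replicates 3 and 5 at 8.31 and 7.92 CPM. The sources used here do not say which part of each liver was taken, and whether a nodule or tumour was sampled was not tested. Without replicates 2 and 6 and oil replicate 2, 6977 genes were called (3632 higher and 3345 lower).

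**Figure D4:**
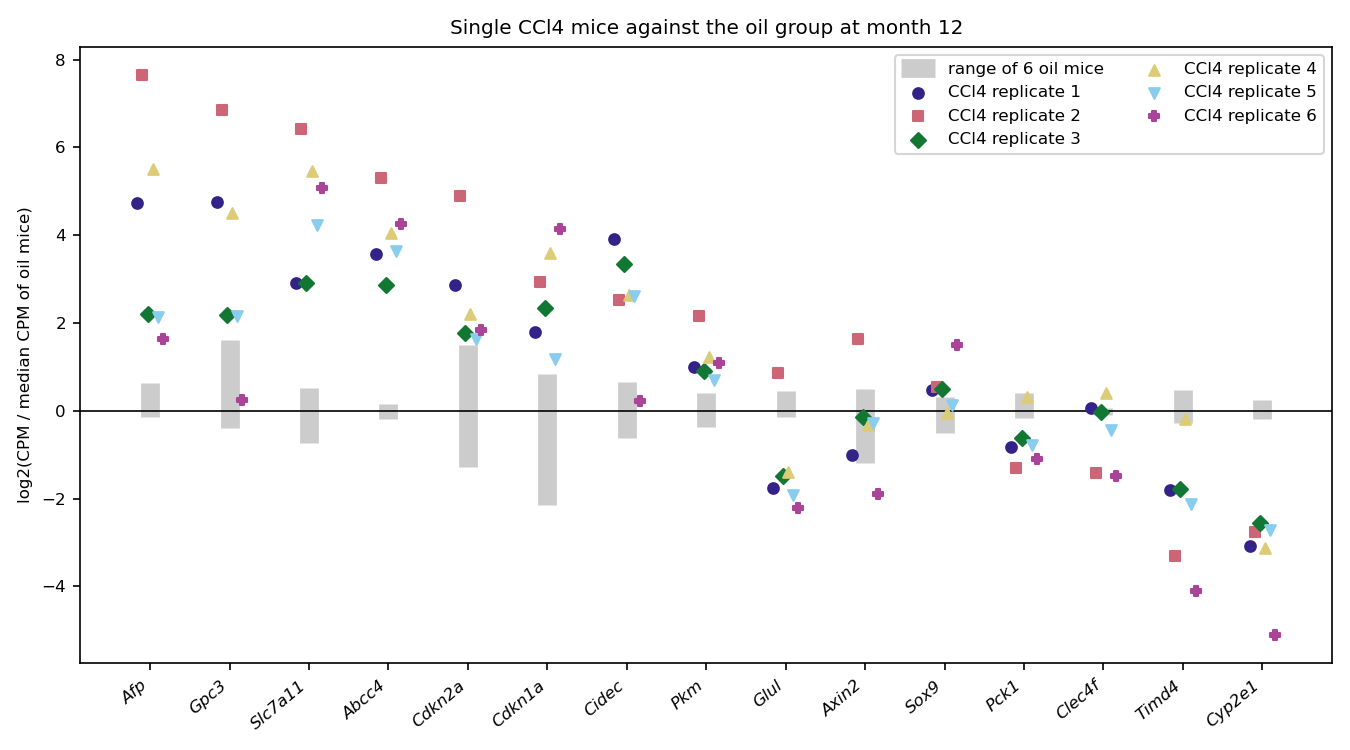
Each CCl4 mouse at month 12 against the median oil mouse for 15 genes, as the log2 ratio of CPM, with the range of the 6 oil mice in grey. Replicate 2 (squares) lay highest for Afp, Gpc3, Slc7a11, Glul and Axin2, and replicate 6 (plus signs) lowest for Cyp2e1, Timd4 and Glul.

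Month 2 of the same treatment, with its own oil group, gave a measure of what was late. There 1073 genes were called higher (7.0%) and 518 lower (3.38%). The month 12 effect differed from the month 2 effect for 3263 genes (21.3%), being higher for 1713 (11.2%) and lower for 1550 (10.1%). With library totals alone it was higher for 5115 and lower for 438. List counts for month 2 and for the difference between months are given with TMM only. Whether they hold with library totals was not tested. Mitosis genes rose in 6 of 42 at month 2, and 36 had a higher effect at month 12. NRF2 targets rose in 2 and fell in 3 of 31 at month 2, with 21 higher at month 12, and DNA replication genes rose in 0 of 43, with 21 higher and 2 lower at month 12. For amino acid breakdown 2 of 42 fell at month 2 and 25 had a lower effect at month 12. Lipid droplet genes rose in 0 and fell in 4 of 17 at month 2, and 9 had a higher effect at month 12. Sinusoidal endothelial genes rose in 4 and fell in 0 of 19 at month 2, and 10 had a lower effect at month 12.

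Other lists were already changed. The interstitial matrix rose in 19 of 33 at month 2, with 0 effects higher and 4 lower at month 12, and the markers of injury macrophages rose in 11 of 17, with 7 higher at month 12. Neutrophil genes rose in 7 of 9 at month 2 (median 2.42) and in 1 at month 12, and for 0 of them the difference between months was called. Proteasome genes fell in 27 of 31 at month 2 and in 14 at month 12, with 6 effects higher and 1 lower at month 12.

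Among the 50 panel genes the difference between months was called for 20. Hhip fell by 1.04 at month 2 (adjusted p = 0.000915) and by 7.37 at month 12, a difference of -6.33, SE 0.40, adjusted p = 6.27e-13. Nqo1 was at 0.25 (adjusted p = 0.51) at month 2, Slc7a11 at 0.30 and Abcc4 at 0.48, none of them called there, and the differences between months were 3.78, 4.72 and 3.67. Cidec lay at -0.48 at month 2, uncalled, with a difference of 3.32, SE 0.55, adjusted p = 3.72e-05. For Cyp2e1 the month 2 value was -0.73 (adjusted p = 0.0722), with a difference of -2.34, SE 0.38, adjusted p = 2.97e-05. Igf1, Slc10a1, Cyp2f2 and C9 were not called at month 2 (0.081, -0.20, 0.38 and 0.067), and each had a lower effect at month 12. Col1a1 was called at month 2 (1.40, adjusted p = 0.0105), and its difference between months was not called (-0.75, SE 0.50, adjusted p = 0.317). The same held for Pdgfrb (0.92 at month 2 and a difference of -0.084, SE 0.22, adjusted p = 0.835), Trem2 (0.89 and -0.33, SE 0.28, adjusted p = 0.439) and Mmp12 (1.27 and -0.31, SE 0.42, adjusted p = 0.65).

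**Figure D5:**
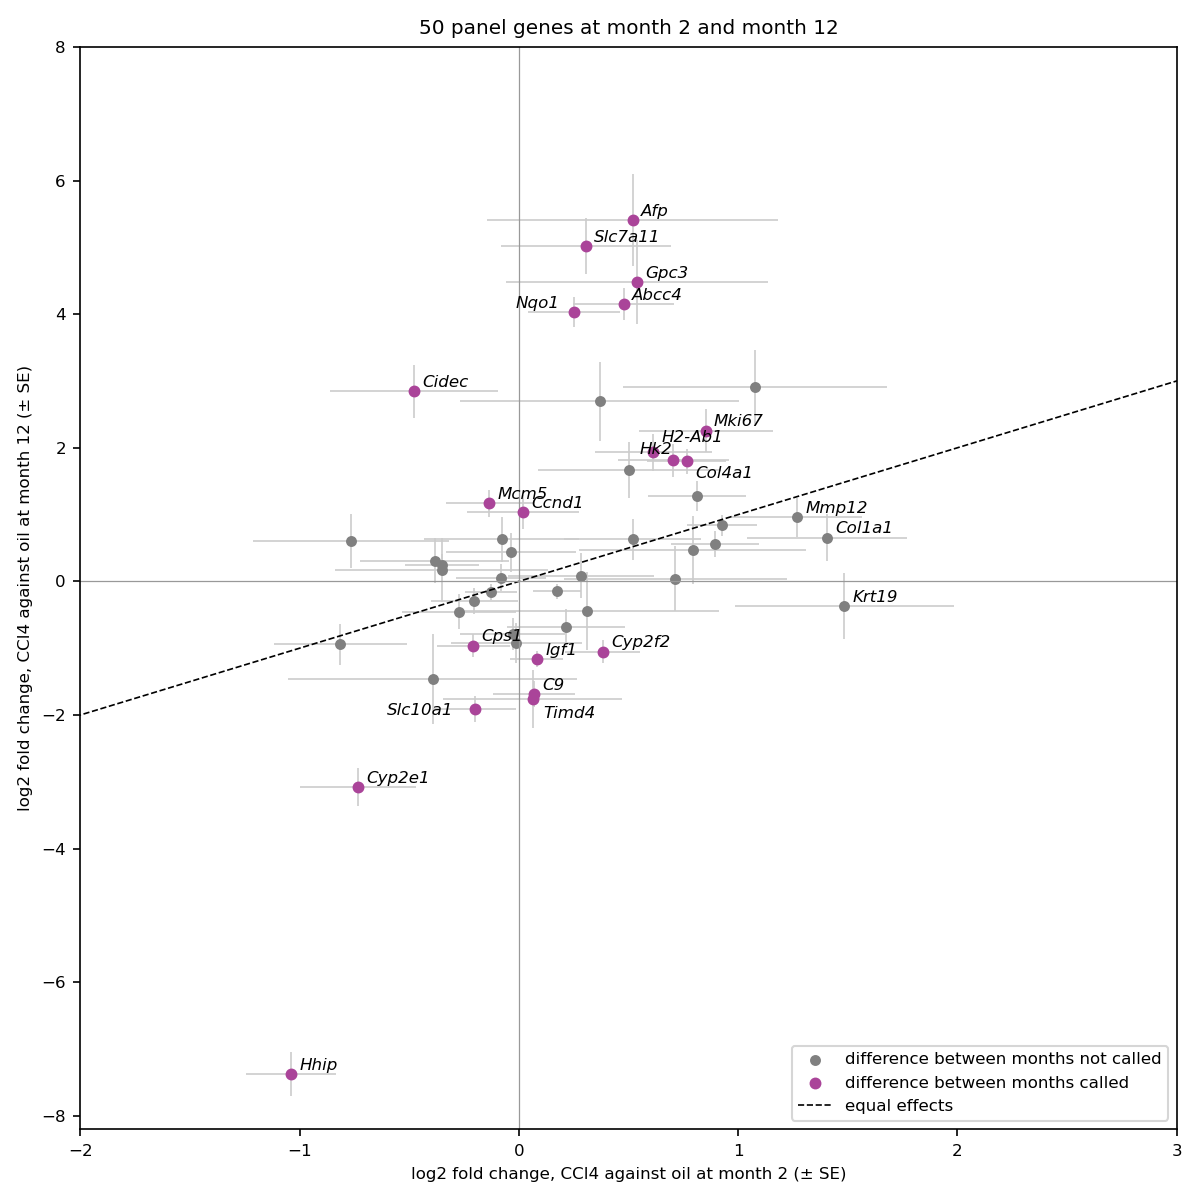
Log2 fold change of CCl4 against oil at month 2 (horizontal) and month 12 (vertical) for the 50 panel genes, with bars of 1 SE and a dashed line of equal effects, and the 20 genes whose difference between months was called in purple. Nqo1, Abcc4, Slc7a11, Afp and Gpc3 lay between 0.25 and 0.54 at month 2 and above 4 at month 12, and Hhip lay farthest below the line.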

How the data were processed

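RNA-seq of whole liver was analysed for 12 of 36 mouse libraries. Per the labels' protocols, ribosomal RNA was removed, stranded total RNA libraries were sequenced as paired 125-base reads and reads were mapped with Biojupies, and the submitters' processing notes name mm10, edgeR 3.30.3 and limma 3.44.3. The authors deposited 1 table of whole-number counts for 32544 gene symbols and 36 libraries, and its annotation, strand setting and counter are not given in the sources used here. Whether the counts are rounded estimates could not be settled from the table. Near-identical genes (Mup, Cyp2, Cyp3a, Sult2a, Gstp, globin and trypsin families) are uncertain.

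The counts were fitted with edgeR 4.0.16 in R 4.3.3: filterByExpr over the 6 groups of the series (15338 genes), TMM scaling and the quasi-likelihood F-test over all 36 libraries, which gives 1 shared spread. P-values were adjusted by Benjamini-Hochberg over all tested genes, and a gene was called at an adjusted p below 0.05. SEs are the fold change over the root of F. Contrasts were CCl4 minus oil at month 12, the same at month 2, and their difference. A list level is the mean of log2(CPM + 1). Positions are from GENCODE vM21 on GRCm38 (mm10), matched for 290 of 290 named genes.

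The 50 panel genes and 67 lists were chosen with earlier results of these data known, so they are no independent support. The lists share members, with 1493 entries for 1441 distinct genes, so their counts are not independent of each other. Within a list, genes were named as the 3 with the smallest p in the direction of more calls and the 2 with the smallest p against it, and the text gives a selection of these. The 5 further genes named for the antioxidant element were added after their values were seen. Results for 2 genes are not reported here. Counts were simulated for 15160 genes, with 100 changed 2-fold and 100 changed 4-fold at month 12 in CCl4, as many up as down. The month 12 contrast called 84% and 99% of these, with 4.19% of calls unchanged genes. Far fewer genes changed there than were called in the data, so the share of wrong calls in the data was not tested. Same-numbered oil and CCl4 libraries did not deviate together (correlations between -0.16 and 0.0338), so the numbers were not taken as pairs. The closest libraries of a group differed by a chi-square of 43.3 per degree of freedom, so none was a duplicate. Alternatives were scaling by DESeq2 1.42.0 size factors or library totals, low-count filters, a fit of the month 12 groups only, a replicate block, DESeq2, limma-voom (limma 3.58.1) and leaving out each library. Added after seeing the data were the pancreas level as a covariate and leaving out oil replicate 2 and CCl4 replicates 2 and 6 together. Promoters are from RefSeq on GRCm38.p6.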

Additional observations from a re-analysis of the deposited data

Results flagged for a closer look

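In a group of 6 mice a value was singled out where its gap to the nearest other mouse was large for the group's range (above the 95% critical value of Dixon's test). This happened in 36 of 234 group and measure combinations (50 panel genes and 67 lists in 2 groups). Chance alone is set to single out about 1 in 20 where values are normally distributed. Whether the CPM of single genes are was not tested, so the 36 cannot be read against that rate. In CCl4 replicate 2, the level of Cdkn2a was 9.05 CPM with the nearest mouse at 2.22, that of Pkm 153 CPM with the nearest at 80.4, that of Abcc4 139 CPM with the nearest at 67.4, that of Glul 1483 CPM with the nearest at 307, that of Axin2 14.4 CPM with the nearest at 4.19, that of Afp 360.5 CPM with the nearest at 81.2 and that of Gpc3 351 CPM with the nearest at 82.9. For CCl4 replicate 2, the list level, as mean log2(CPM + 1), was apart for complement (7.25, nearest mouse 7.57) and YAP and TEAD targets (4.04, nearest mouse 3.86). In CCl4 replicate 4, the level of Hhip was 0.144 CPM with the nearest mouse at 0.0371, that of Timd4 9.12 CPM with the nearest at 3 and that of Pck1 2069 CPM with the nearest at 1087. In CCl4 replicate 6, the level of Sox9 was 8.5 CPM with the nearest mouse at 4.36. For CCl4 replicate 6, the list level, as mean log2(CPM + 1), was apart for plasma carriers and apolipoproteins (9.34, nearest mouse 9.78), urea cycle and ammonia (6.80, nearest mouse 7.62), fatty acid and triglyceride synthesis (6.15, nearest mouse 6.67), cholesterol synthesis and uptake (5.97, nearest mouse 6.42), hepatocyte transcription factors (5.04, nearest mouse 5.18) and intestine (1.61, nearest mouse 2.00). For oil replicate 1, the list level, as mean log2(CPM + 1), was apart for nucleolus and ribosome assembly (4.51, nearest mouse 4.64). In oil replicate 2, the level of Pdgfrb was 18.8 CPM with the nearest mouse at 11.7, that of Cd3e 0.832 CPM with the nearest at 0.378, that of Krt19 13 CPM with the nearest at 4.32, that of Gpc3 9.31 CPM with the nearest at 3.6 and that of Cd34 37.5 CPM with the nearest at 10.9. For oil replicate 2, the list level, as mean log2(CPM + 1), was apart for TGF beta and PDGF signalling (3.40, nearest mouse 2.82), cytokines and NF-kappaB targets (3.39, nearest mouse 3.04), YAP and TEAD targets (3.86, nearest mouse 3.46), male-biased hepatocyte genes (7.58, nearest mouse 7.82), vascular endothelium and angiogenesis (2.36, nearest mouse 2.19) and mesothelium (4.42, nearest mouse 2.45). For oil replicate 3, the list level, as mean log2(CPM + 1), was apart for erythroid cells (4.52, nearest mouse 5.61). In oil replicate 4, the level of Cpt1a was 301 CPM with the nearest mouse at 229 and that of Cyp7a1 822 CPM with the nearest at 260.0. In oil replicate 5, the level of Hhip was 5.09 CPM with the nearest mouse at 7.2. In oil replicate 6, the level of Timp1 was 15.7 CPM with the nearest mouse at 3.74.

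For 20 of the 50 panel genes the effect of CCl4 at month 12 differed from that at month 2 by the interaction term in edgeR, with an adjusted p below 0.05. The month 12 effect was higher, in log2 units, for Col4a1 (1.03), H2-Ab1 (1.32), Mki67 (1.41), Mcm5 (1.30), Ccnd1 (1.02), Nqo1 (3.78), Slc7a11 (4.72), Hk2 (1.11), Cidec (3.32), Abcc4 (3.67), Afp (4.89) and Gpc3 (3.94). It was lower for Hhip (-6.33), Timd4 (-1.82), Cps1 (-0.75), Slc10a1 (-1.70), Cyp2e1 (-2.34), Cyp2f2 (-1.43), Igf1 (-1.24) and C9 (-1.75).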

How the results depend on the processing

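The count of 7536 genes called at month 12 lay between 7132 and 7831 when 1 library was left out, that of higher genes between 3606 and 4158 and that of lower genes between 3139 and 3805, and the 3263 differences between months lay between 2936 and 3396. With the replicate number as a block, 7482 genes were called (3950 higher and 3532 lower) and 3107 differences between months. The numbers were not taken as pairs, and the labels do not say whether they mark a shared batch. A fit of the 2 groups only called 6226 genes, DESeq2 7650 and limma-voom 7317. Library totals alone gave 10331 higher and 592 lower genes (3623 and 222 at least 2-fold) and 5553 differences between months (5115 higher and 438 lower). Under that scaling the median of all genes moved by 0.54, and which scaling lies nearer the truth was not tested. With library totals alone Ldha lay at 0.038, Yap1 at 0.10, Hnf4a at 0.39 and Stab2 at 0.40. Without oil replicate 2 and CCl4 replicates 2 and 6, A2m lay at -0.60 and the cause was not tested. Counts of 3 genes or fewer in a list often moved by 1 or 2 genes without a library. Of 271 called genes among the 290 named, 192 kept their call in all 22 alternatives.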

Other observations

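Some listed genes did not pass the filter on low counts, which runs over all 36 libraries and asks for counts in enough single libraries, and are given as sums of raw counts over 6 mice, oil before CCl4. Of the female-biased cytochromes P450, Cyp2b13 had 3 and 313 counts and Cyp3a16 had 8 and 465, although near-identical copies leave their counts uncertain. The chemokine genes Ccl17 and Ccl22, which attract regulatory T cells, had 11 and 88 and 20 and 56. The Notch ligand gene Jag2 had 16 and 158, the T cell and NK cell factor gene Eomes 16 and 72, and the lipid droplet gene Cidea 16 and 89. The cytokine genes Osm and Il6, which act through a shared receptor chain, had 13 and 48 and 42 and 13. Of the intestinal genes, the mucin gene Muc2 had 28 and 0 and the defensin gene Defa24 59 and 0, so both were seen in oil libraries.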
